A study of Mus musculus with 2 samples.

Results

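The genes described here are 5 ligands of the gp130 cytokine family (Lif, Clcf1, Cntf, Il6 and Il11) and 5 of its receptor chains (Il6st, Lifr, Osmr, Cntfr and Il6ra), 10 of the 32285 genes in the count tables, chosen by name. All 10 were found, and their unique molecular identifiers (UMIs, 1 per captured RNA molecule) were summed by class of droplet in 2 single-cell RNA libraries of mouse retina, to see which cells held the ligand RNAs and which the receptor RNAs. One library came from control mice after 18 h of dark adaptation. The other came from mice that had 18 h of darkness, 30 min of white light at 5000 lux and 6 h of recovery, called light damage. The mice were 6 to 9 weeks old, carried floxed alleles of Tgfbr2 without a Cre driver, which makes them functionally wildtype, and were kept on a Balb-C/CD1 background. Each library pools the retinae of 3 to 5 mice, and no condition has a second library.

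gp130, the product of Il6st, is the shared signalling chain of this family. A ligand binds gp130 together with other receptor chains, not all of which signal, and the complex activates JAK kinases and the transcription factor Stat3. Lif, Cntf and the cardiotrophin-like cytokine Clcf1 use the LIF receptor Lifr, and Cntf and Clcf1 also need Cntfr, an anchored chain with no signalling part. Il6 binds Il6ra, Il11 its own alpha chain, and oncostatin M binds Osmr. In the retina, Lif from Müller glia, the radial support cells, is known as a survival factor for photoreceptors under stress.

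With 1 library per condition no test was possible. The intervals given are exact 95% intervals for the counting of molecules alone, with no part for differences among mice or preparations. Levels are spliced plus ambiguous UMIs of a gene per 1000000 such UMIs of all genes in the class, written CPM, and since only the 3' end is read they are not divided by transcript length. In summed droplets, fewer expressing cells and less RNA per cell give the same level, so shares of droplets are given beside the levels.

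Droplets were named from marker genes, and the limits of that rule were set after the data had been seen. Of 3669 control and 5593 light damage droplets kept, 2398 and 1889 were rod-like with under 20% unspliced UMIs, which hold intron sequence and come mostly from nuclei, and 715 and 3086 were rod-like with over 30%. The cone-like class held 6 and 51 droplets, the RPE-like class 152 and 282, the Müller-like class 29 and 27 and the microglia-like class 6 and 35. RPE is the retinal pigment epithelium, the layer behind the photoreceptors. The 10 Müller, 11 microglia and 9 cone markers were each seen in at least 10% of their class in both libraries, as were 9 of 10 RPE markers. Best1 was the RPE marker below that share. The control cone-like and microglia-like classes, at 6 droplets each, give no more than upper limits for most genes. Depth moved with light: the median droplet held 2815 UMIs in control and 20480 in light damage Müller-like droplets, and 2692 and 6421 in RPE-like droplets. All 29 control Müller-like droplets lay in 1 cluster of a clustering of both libraries and 24 of the 27 light damage ones in another, while 152 control and 164 light damage RPE-like droplets shared a cluster and the other 118 lay in a cluster with no control droplet. The pools also differed in sex, with 4770 Xist UMIs in kept control and 3 in kept light damage droplets, so that sex and light cannot be told apart. Only 7 droplet barcodes were kept in both libraries.

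The upstream sequences of Lif and Il6, the 2 ligands with no spliced or ambiguous UMI in any kept control droplet, are shown first, from the RefSeq promoter table on GRCm38.p6. Letters in capitals mark matches to 3 motifs: AP-1 (TGANTCA), NF-κB (matched as GGGATTTTCC) and C/EBP (TTGCNNAA, matched on the minus strand), each searched on both strands.
Lif, chr11:4257318-4257547, plus strand: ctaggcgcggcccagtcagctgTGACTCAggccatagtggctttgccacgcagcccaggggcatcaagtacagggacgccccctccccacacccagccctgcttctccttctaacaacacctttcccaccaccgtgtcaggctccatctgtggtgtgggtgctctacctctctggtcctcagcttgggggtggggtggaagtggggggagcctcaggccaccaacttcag
Il6, chr5:30012864-30013113, plus strand: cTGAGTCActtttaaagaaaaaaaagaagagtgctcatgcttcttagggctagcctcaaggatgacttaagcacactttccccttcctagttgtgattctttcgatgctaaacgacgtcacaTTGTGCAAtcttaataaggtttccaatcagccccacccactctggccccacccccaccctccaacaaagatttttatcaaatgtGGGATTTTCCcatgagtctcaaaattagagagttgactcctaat

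Over windows from 250 bases before to 50 after a start, 7.81% of all 32851 promoters held the AP-1 letters, 0.411% the NF-κB letters and 10.8% the C/EBP letters. The table held 16 windows for 9 of the 10 genes, and none for Clcf1. AP-1 letters stood in 5 of the 16, 1 window each of Lif, Cntf, Il6, Il11 and Osmr, and NF-κB letters only in that of Il6. STAT letters (TTCNNNGAA), found in 8.30% of all windows, stood in none of the 16, nor did CRE (TGACGTCA, 1.79%) or TATA letters (TATAAA, 13.6%). A match is a description of these letters and no sign of binding.

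Lif (chromosome 11, 4257557 to 4272514, GRCm38) was found in Müller-like droplets after light damage. It had 0 UMIs in all 3669 kept control droplets and 379 in the light damage droplets, of which 315, or 83.1%, lay in the 27 Müller-like droplets. These droplets held only 1.26% of the UMIs of all genes. The level there was 1105 CPM (986 to 1234), and in the control Müller-like class, where 3 UMIs would have been 30.7 CPM, it was 0. The light damage level was 36.0-fold above that of 3 UMIs, and the exact interval of the log2 ratio began at 4.86. The light damage level was 576 CPM with unspliced UMIs added to gene and total, and 635 CPM with droplets of mixed markers kept in the class. Lif was present in 21 of 27 light damage droplets (77.8%, 57.7 to 91.4) and in 0 of 29 control droplets. A count of 0, limited at 3 droplets, allows up to 10.3% of droplets with a Lif UMI at that lower depth (exact interval 0 to 11.9%), and says less about the share of expressing cells. Thinned to 1500 UMIs per droplet, which removes the gap in depth, the light damage share was 38.5%.

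The Lif molecules were uneven over the droplets. The median droplet held 3 Lif UMIs, the highest 78 and the next 55, and the 10 highest held 89.5% of the Lif UMIs of the class. Without the highest droplet the level was 905 CPM. The class was named by Müller markers, so the markers of its 21 Lif-positive droplets are a description. Each of these droplets carried at least 5 of the 10 Müller markers, with a median of 120 marker UMIs. Their medians were 0 UMIs for RPE, cone and microglia markers and 9 for rod markers. Of the 4 astrocyte markers they held at most 3, with a median of 2 UMIs and at most 19. They also held 1 to 46 UMIs of the 6 endothelial markers (median 18), from Flt1 or Kdr, which were seen in control Müller-like droplets too, at 1574 CPM for the whole endothelial list in the control class and 1849 CPM in the light damage class. The part of endothelial or astrocyte RNA in the Lif level was not tested. Outside the class the RPE-like droplets held 10 Lif UMIs, 9 of them in 1 droplet, and the level was 4.33 CPM (2.08 to 7.97), 255-fold below Müller-like droplets. Rods with a high unspliced share held 16 and those with a low share 3, where 1.54 and 0.664 were expected from free RNA in the suspension. The 51 cone-like and 35 microglia-like droplets had 0.

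Clcf1 (chromosome 19, 4214238 to 4223490) had the same main class. Müller-like droplets held 1 UMI in the control and 72 after light damage, which is 80.0% of the 90 Clcf1 UMIs in kept light damage droplets. The level went from 10.2 CPM (0.259 to 56.9) to 253 CPM (198 to 318), a log2 ratio of 4.63 (2.10 to 9.95). It was present in 19 of the 27 light damage droplets, and 17 of these also held Lif. The 4 droplets with neither had a median of 8244 UMIs, against 22134 in the droplets with both. RPE-like droplets came next with 8 UMIs in 7 droplets, or 3.47 CPM. The annotated gene overlaps AC109138.7, a protein-coding gene on the same strand, over 9134 bases, so reads of both cannot be told apart there.

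Il6 (chromosome 5, 30013114 to 30019981) was found in a few RPE-like droplets after light damage. Of its 238 UMIs in kept light damage droplets, 221, or 92.9%, lay in RPE-like droplets, and no kept control droplet held a spliced or ambiguous Il6 UMI. The RPE level was 95.8 CPM (83.6 to 109) after light damage, 21.7-fold above the 4.42 CPM that 3 UMIs would have been in the control. The exact interval of the log2 ratio began at 4.13. Only 17 of 282 droplets held it (6.03%, 3.55 to 9.48), while 0 of 152 did in the shallower control, which by the limit of 3 droplets allows up to 1.97% with an Il6 UMI (exact interval 0 to 2.40%). The highest held 55 UMIs, the next 33, and the 10 highest held 95.5% of the total. Without the highest the level was 73.0 CPM.

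The class itself was named by RPE markers, so the RPE markers of its 17 Il6-positive droplets are a description. Each carried 6 to 9 of the 10 RPE markers with 115 to 3635 marker UMIs (median 849), against at most 6 UMIs of microglia and macrophage markers and at most 1 of endothelial markers. They held 14 to 185 UMIs of the Müller list (median 51), of which Glul, Sox9, Dkk3, Dbi and Car14 were also seen in at least 10% of all light damage RPE-like droplets. Their median depth was 12717 UMIs, against 5983 in droplets without Il6, so presence moved with depth. All 17 held Osmr, as did 246 of all 282 light damage RPE-like droplets. Microglia-like droplets held 6 Il6 UMIs in 3 droplets, 17.0 CPM (6.24 to 37.0), which is 5.63-fold below RPE. Müller-like droplets held 3 spliced or ambiguous and 7 unspliced Il6 UMIs.

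Cntf (chromosome 19, 12763660 to 12765632) was present in RPE-like droplets of both libraries and was the only ligand with more than 1 UMI in kept control droplets. It had 62 UMIs in 30 of 152 control droplets and 162 UMIs in 93 of 282 light damage droplets. The levels were 91.3 CPM (70.0 to 117) and 70.2 CPM (59.8 to 81.9), with a log2 ratio of -0.38 (-0.81 to 0.07) whose interval spans 0. The share of droplets with Cntf was 19.7% (13.7 to 27.0) and 33.0% (27.5 to 38.8), and, thinned to equal depth, 10.4% and 8.45%. Cone-like droplets came second after light damage with 18 UMIs in 11 of 51 droplets and 35.0 CPM (20.8 to 55.3). Control cone-like droplets had 0, below a floor of 67.5 CPM, so no direction can be read. In rods with a high unspliced share Cntf had 3 UMIs in the control and 74 in 65 of 3086 light damage droplets, where 1.76 were expected from free RNA. The level was 2.02 and 7.04 CPM, a log2 ratio of 1.80 (0.20 to 4.11). Cntf lies wholly inside the same-strand gene Zfp91, so its reads may in part be Zfp91 RNA, which these counts cannot separate.

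Il11 (chromosome 7, 4772373 to 4782859) was rare, with 1 UMI in kept control and 24 in kept light damage droplets. Rods with a high unspliced share held 10 of these and RPE-like droplets 7, at 0.951 CPM (0.456 to 1.75) and 3.03 CPM (1.22 to 6.25). No class had more than 20 UMIs over both libraries.

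**Figure D1:**
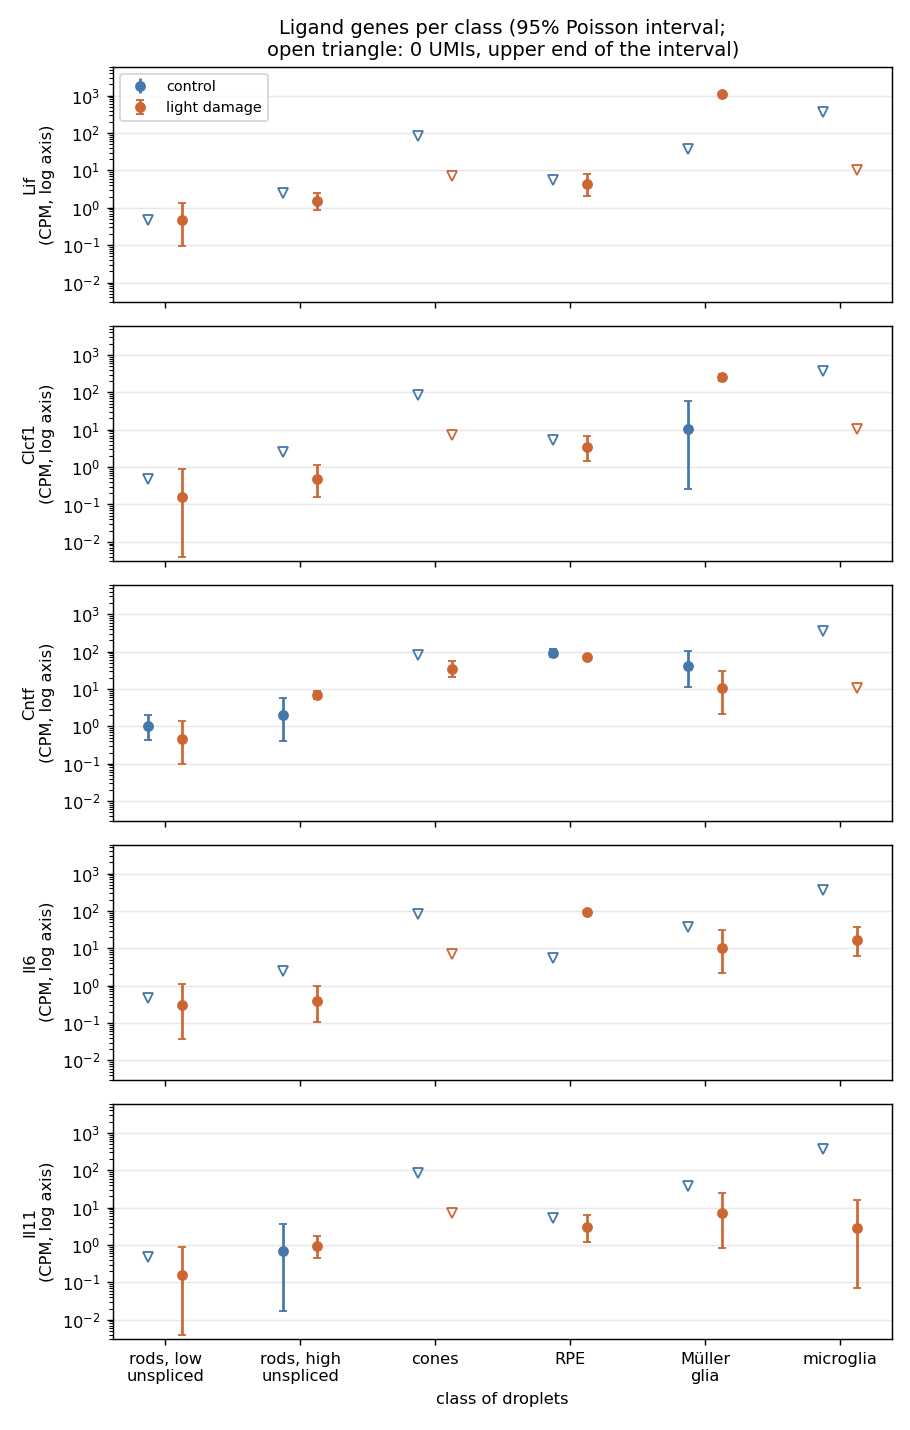
Level of the 5 ligand genes by class, in CPM on a log axis, for control (blue) and light damage (orange). Points carry 95% Poisson intervals and open triangles mark the upper end of the interval where no UMI was counted. Lif (1105 CPM) and Clcf1 (253 CPM) stand highest in light damage Müller glia, Il6 (95.8 CPM) in light damage RPE, and Cntf is near the same level in RPE of both libraries.

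Among the receptors, Il6st (chromosome 13, 112464070 to 112510086) was the most widely spread. It was higher after light damage in the 4 of 6 classes that had its spliced or ambiguous UMIs in both libraries. In rods with a low unspliced share it had 230 UMIs in 150 of 2398 control droplets and 704 in 470 of 1889 light damage droplets, 29.2 CPM (25.5 to 33.2) and 109 CPM (101 to 117). Free RNA would account for 2.10 and 2.96 UMIs. The log2 ratio was 1.90 (1.68 to 2.12). Rods with a high unspliced share had 60 and 1555 UMIs, 40.4 CPM (30.9 to 52.1) and 148 CPM (141 to 155), with a log2 ratio of 1.87 (1.499 to 2.268). The rise was thus 3.73-fold and 3.66-fold in the 2 kinds of rods, with intervals that overlap.

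Il6st was higher still in the support cells. RPE-like droplets had 88 and 561 UMIs, 130 CPM (104 to 160) and 243 CPM (223 to 264), a log2 ratio of 0.91 (0.58 to 1.25). Müller-like droplets had 12 and 101, 123 CPM (63.4 to 214) and 354 CPM (289 to 431), a log2 ratio of 1.53 (0.66 to 2.53), and 23 of the 27 light damage droplets held the gene. Light damage cone-like and microglia-like droplets had 50 and 39 UMIs, 97.3 and 110 CPM, beside 0 in 6 control droplets of each. Unspliced Il6st UMIs were 1 and 6 in these control droplets and 25 and 32 after light damage. The gene was thus not absent from the control, and no direction can be read in these 2 classes. After light damage the order was Müller, RPE, rods with a high unspliced share, microglia, rods with a low share and cones. Only the first 2 steps exceeded counting error, Müller over RPE by 1.46-fold and RPE over rods by 1.64-fold. The step of Müller over RPE depends on leaving out unspliced UMIs, which were 49.9% of all UMIs in Müller-like and 4.89% in RPE-like droplets. Unspliced Il6st UMIs were 20 and 0, in totals of 569385 and 2426097 UMIs of all genes. With them added to gene and total, Müller did not stand above RPE.

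Lifr (chromosome 15, 7090614 to 7197489) was found mostly in rods. Rods of all unspliced shares held 92.7% of its 937 UMIs in kept control and 88.2% of its 3612 in kept light damage droplets. Rods of low and high unspliced share held 68.9% and 17.3% of Lifr in the control, beside 68.2% and 12.8% of the UMIs of all genes. After light damage they held 19.3% and 66.9% of Lifr, beside 28.5% and 46.3% of all genes. Rods with a low unspliced share had 646 and 697 UMIs, 81.9 CPM (75.7 to 88.5) and 108 CPM (100 to 116). The log2 ratio was 0.40 (0.24 to 0.55) and, centred on the median gene of the class, 0.23. Those with a high share had 162 and 2415 UMIs, 109 CPM (93.0 to 127) and 230 CPM (221 to 239), a log2 ratio of 1.07 (0.84 to 1.31). With unspliced UMIs added it was 0.78. Cone-like droplets stood at 90.0 CPM (24.5 to 230) from 4 UMIs in the control and 95.3 CPM (70.5 to 126) from 49 after light damage.

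Lifr was scarce in the class that held its ligand. Müller-like droplets had 0 spliced or ambiguous Lifr UMIs in the control, with 12 unspliced, and 10 with 8 unspliced after light damage, 35.1 CPM (16.8 to 64.5), where the Lif level was 1105 CPM. In RPE-like droplets it rose from 8 UMIs, where 2.69 were expected from free RNA, to 119, 11.8 CPM (5.09 to 23.2) in control and 51.6 CPM (42.7 to 61.7) in light damage, which is a log2 ratio of 2.13 (1.11 to 3.38).

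Il6st and Lifr, which together make the receptor for Lif, were both detected in 37 of 2398 control and 148 of 1889 light damage rods with a low unspliced share, 1.54% and 7.83%. For rods with a high share it was 9 of 715 and 474 of 3086, 1.26% and 15.4%. The droplets with both were deeper, with medians of 4185 and 9914 UMIs in the light damage rods of low and high unspliced share, against 2896 and 4736 for those with neither. The joint shares thus move with depth. They also move with the share of each gene, which in rods of high unspliced share went from 6.01% to 29.7% for Il6st and from 15.9% to 39.7% for Lifr, and whether the pairing itself changed was not tested.

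Osmr (chromosome 15, 6813577 to 6874969), the receptor chain for oncostatin M, had the largest number of UMIs of the 10 genes after light damage, and 92.1% of its 5930 UMIs in kept light damage droplets lay in RPE-like droplets. That class had 151 UMIs in 58 of 152 control droplets and 5463 in 246 of 282 light damage droplets. The level went from 222 CPM (188 to 261) to 2367 CPM (2305 to 2431), 10.6-fold, a log2 ratio of 3.41 (3.18 to 3.66). The median control droplet held 0 Osmr UMIs and the highest 8, while the median light damage droplet held 9.5 and the highest 178. The highest droplet held 3.26% of the light damage UMIs. Thinned to equal depth, 19.3% of control and 73.0% of light damage droplets held Osmr.

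In Müller-like droplets Osmr had 14 UMIs in 5 of 29 control droplets and 206 in 24 of 27 light damage droplets. The level went from 143 CPM (78.2 to 240) to 723 CPM (627 to 828), a log2 ratio of 2.34 (1.56 to 3.23). A single control droplet held 9 of the 14 UMIs, and with the highest droplet of each library left out the log2 ratio was 3.63. All 21 Lif-positive Müller-like droplets held Osmr. The unspliced part of Osmr RNA was unlike in the 2 classes: 203 unspliced UMIs stood beside 206 other Osmr UMIs in light damage Müller-like droplets (49.6%) and 13 beside 5463 in RPE-like droplets (0.237%), where 49.9% and 4.89% of the UMIs of all genes were unspliced. Rods had little Osmr, with 23 and 91 UMIs after light damage, 3.56 and 8.66 CPM, where 7.43 and 17.2 UMIs were expected from free RNA, in which Osmr stood at 184 CPM. Microglia-like droplets had 0.

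Cntfr (chromosome 4, 41657498 to 41697089) moved in opposite directions in 2 classes. In Müller-like droplets it had 27 UMIs in 13 of 29 control and 21 in 15 of 27 light damage droplets, and relative to depth the level fell from 276 CPM (182 to 401) to 73.7 CPM (45.6 to 113), which is a log2 ratio of -1.91 (-2.80 to -1.03). Centred on the median gene of the class the ratio was -1.32. In RPE-like droplets it had 1 UMI in the control and 86 in 50 of 282 droplets after light damage, 1.47 CPM (0.0373 to 8.20) and 37.3 CPM (29.8 to 46.0), a log2 ratio of 4.66 (2.15 to 9.98). After light damage the Müller level was still 1.98-fold above that of RPE. Of the 93 RPE-like droplets with Cntf, 22 also held Cntfr.

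Il6ra (chromosome 3, 89864059 to 89913196) was found mainly in microglia-like droplets, which held 22 of its 38 UMIs in kept light damage droplets, in 12 of 35 droplets, at 62.3 CPM (39.1 to 94.4). The 6 control droplets held 2 UMIs, so the log2 ratio of -1.67 (-3.70 to 1.46) gives no direction. Müller-like droplets held 8 after light damage, 28.1 CPM (12.1 to 55.3), and 0 in the control. The light damage level of microglia over Müller, a log2 ratio of 1.15 (-0.07 to 2.53), did not exceed counting error. RPE-like droplets, which held most Il6, had 0 Il6ra UMIs in both libraries, below 4.42 and 1.30 CPM for 3 UMIs.

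**Figure D2:**
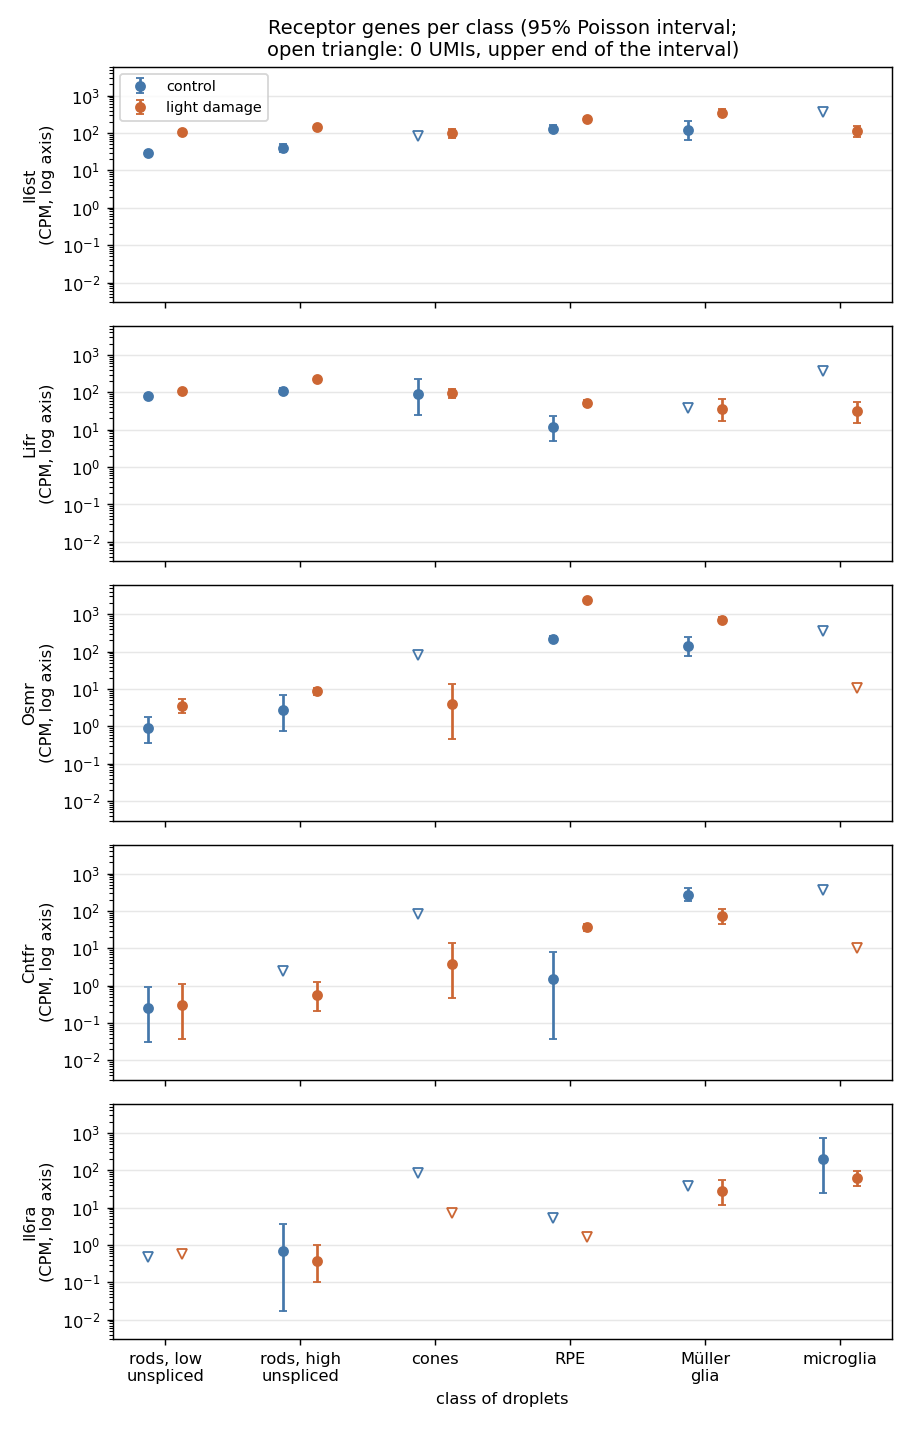
Level of the 5 receptor genes by class, in CPM on a log axis, for control (blue) and light damage (orange), with 95% Poisson intervals and open triangles at the upper end of the interval for 0 UMIs. Il6st is present in every light damage class, Lifr is highest in rods with a high unspliced share (230 CPM), Osmr in RPE (2367 CPM) and Il6ra in microglia. The Il6ra step over light damage Müller glia does not exceed counting error.

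**Figure D3:**
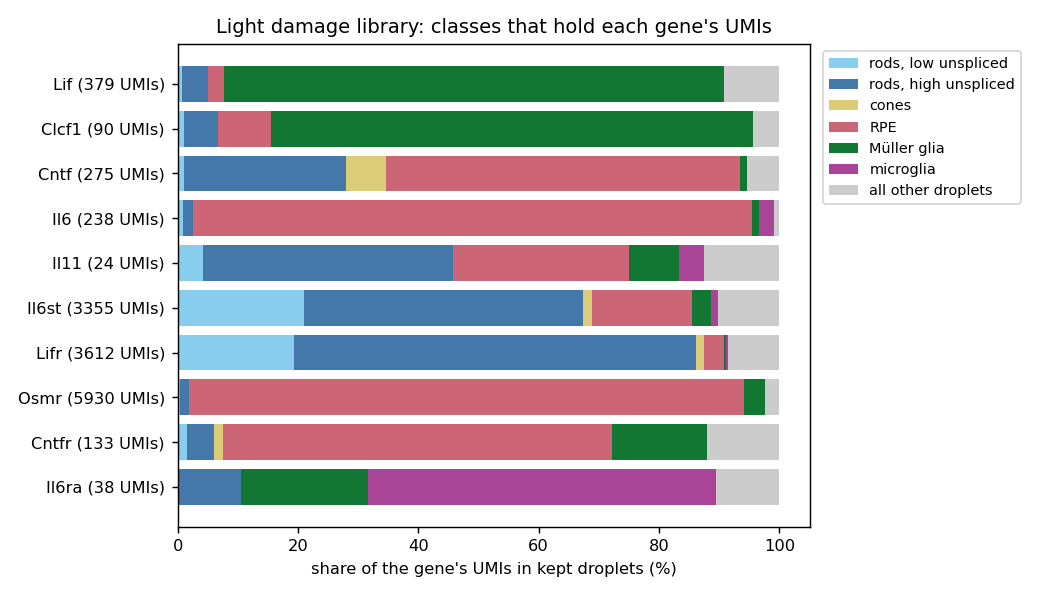
Share of each gene's UMIs in kept light damage droplets, in percent, that lay in each class, with the number of UMIs beside the gene. Lif and Clcf1 are mostly in Müller glia (83.1% and 80.0%), Il6 and Osmr in RPE (92.9% and 92.1%), and Il6st and Lifr mostly in rods. Rods of low and high unspliced share held 28.5% and 46.3% of the UMIs of all genes in this library. Of Il6st they held 21.0% and 46.3%.

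The plot of UMIs by droplet sets these genes beside the depth of the droplet. The deepest control Müller-like droplet held 51959 UMIs and 0 of Lif, while the median light damage one held 20480 and 3 of Lif.

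**Figure D4:**
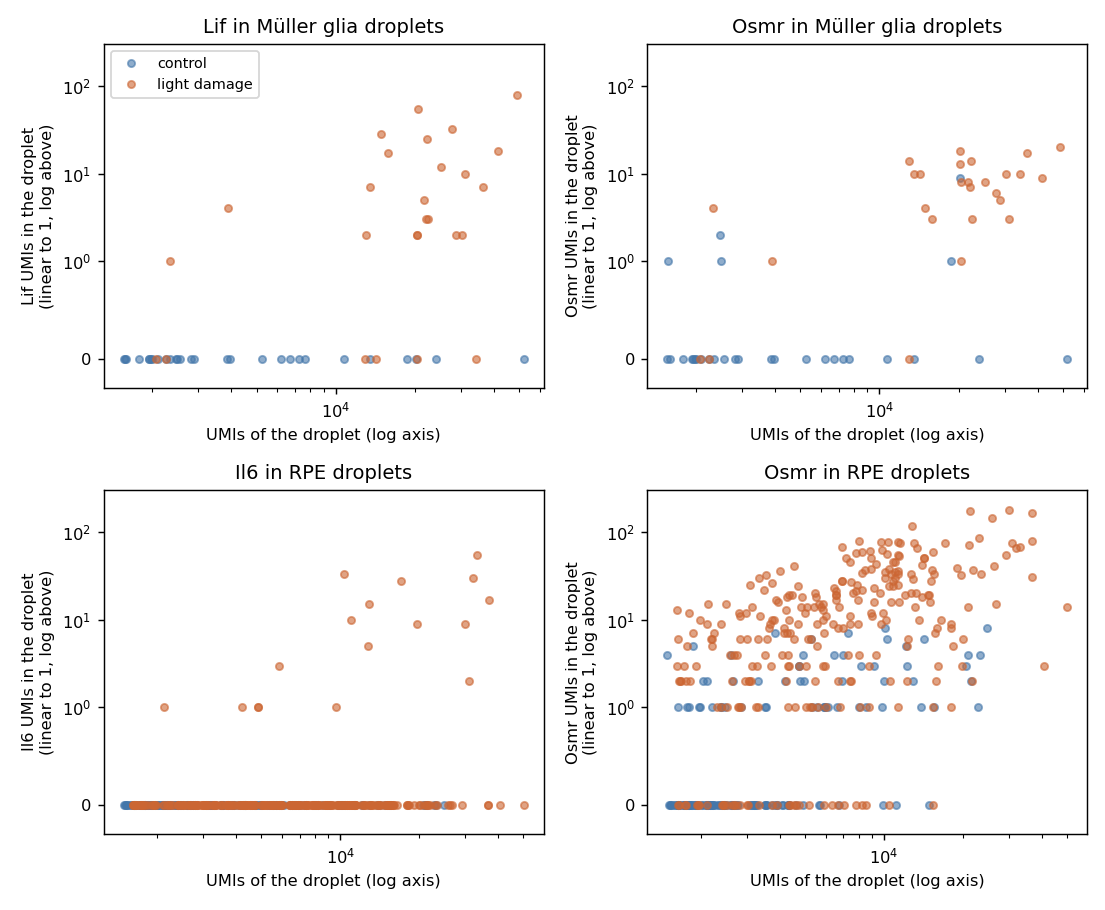
UMIs of Lif and Osmr in each Müller-like droplet and of Il6 and Osmr in each RPE-like droplet (vertical axis, linear to 1 and logarithmic above) against the UMIs of the droplet (log axis), control in blue and light damage in orange. Lif reaches 78 UMIs in 1 light damage droplet and is 0 in every control droplet. Il6 is in 17 of 282 and Osmr in 246 of 282 light damage RPE droplets.

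The members are set here against all genes with at least 20 UMIs over both libraries of a class, counting those at least 2-fold apart with 0.5 UMIs added to each count. In RPE-like droplets 11.8% of 8796 genes were at least 2-fold higher and 7.05% lower after light damage, and of 6 members with enough UMIs, Il6, Lifr, Osmr and Cntfr were higher and 0 lower. In Müller-like droplets 23.8% of 3917 genes were higher and 17.6% lower, and of 5 members Lif, Clcf1, Il6st and Osmr were higher and Cntfr lower. Centred on the median gene, which stood at -0.59 in this class, 1515 genes in place of 933 were higher and 292 in place of 691 lower, and the calls of these 5 members had the same signs.

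In rods with a low unspliced share 4.66% of 10241 genes were higher and 2.88% lower, and of 3 members Il6st and Osmr were higher. In rods with a high share 8.40% of 12011 were higher and 6.00% lower, and all 4 members with enough UMIs (Cntf, Il6st, Lifr and Osmr) were higher. In cone-like droplets 22.2% of 5148 were higher, and of 2 members Il6st was higher. In microglia-like droplets 25.4% of 3392 were higher and 19.9% lower, and of 2 members Il6st counted as higher and Il6ra as lower. The interval of Il6ra spans 0, and its log2 ratio of -1.67 was -0.93 when centred, so its count gives no direction. Centred, 1775 genes in place of 1145 were higher in cone-like and 1940 in place of 863 in microglia-like droplets. The control counts of the last 2 classes come from 6 droplets each, and for Il6st the control count was 0 in both, so that the added 0.5 UMIs set these 2 calls. Unspliced Il6st UMIs, 1 in control cone-like and 6 in control microglia-like droplets, were left out, so these 2 calls give no direction. Members passed the minimum of 20 UMIs more easily where they were high after light damage, so these counts are a description.

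**Figure D5:**
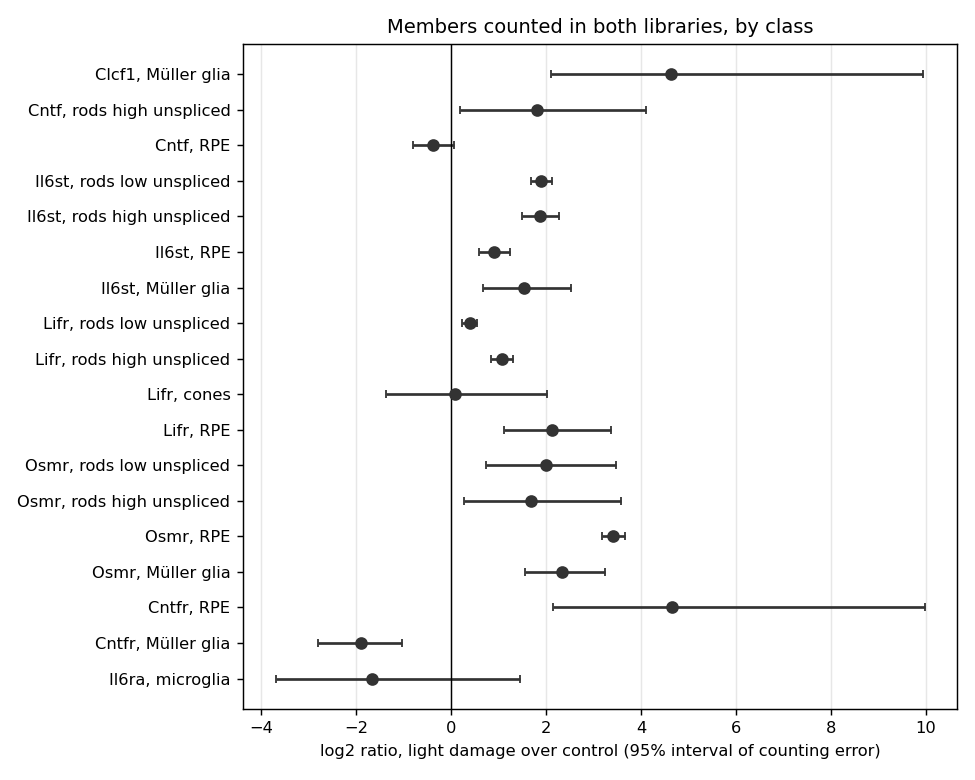
Log2 ratio of light damage over control for each member and class with at least 20 UMIs over both libraries and UMIs in both, with the 95% interval of counting error. Osmr in RPE (3.41) has a narrow interval far from 0, Il6st lies near 1.9 in both kinds of rods, Cntf in RPE spans 0, and Cntfr in Müller glia (-1.91) lies below it.

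Among further genes of the family, oncostatin M (Osm), the ligand of Osmr, was found in microglia-like droplets. It had 56 UMIs in 11 of 35 light damage droplets, 159 CPM (120 to 206), with 23 in the highest, and 0 in the 6 control droplets. Those 56 were 91.8% of the Osm UMIs in kept light damage droplets, and 7 of the 11 droplets also held Il6ra. Each of the 11 carried at least 7 of the 11 microglia markers, by which the class was named, so this is a description. Cardiotrophin 1 (Ctf1), another ligand of Lifr, was an RPE gene that fell, from 45 UMIs and 66.3 CPM (48.3 to 88.7) to 63 UMIs and 27.3 CPM (21.0 to 34.9), a log2 ratio of -1.28 (-1.85 to -0.69). The Il11 receptor Il11ra1 was also highest in control RPE, at 97.2 CPM (75.2 to 124), and stood at 64.1 CPM (54.2 to 75.3) after light damage, a log2 ratio of -0.60 (-1.03 to -0.16), when microglia-like droplets had 79.3 CPM (52.7 to 115). Ebi3, a subunit of the cytokine IL-27, stood at 3.17 and 2.94 CPM in control and light damage rods of low and at 3.37 and 4.19 CPM in those of high unspliced share, with log2 ratios of -0.11 (-1.05 to 0.81) and 0.31 (-1.018 to 2.005) whose intervals span 0. Il27, Il31, Il31ra, Il27ra and Ctf2 did not reach 10 spliced or ambiguous UMIs in any of the 6 classes.

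The 14 genes listed downstream of gp130 include kinases, STAT factors, inhibitors of their signalling, Ptpn11 and Bcl3. In RPE-like droplets 6 of the 11 with enough UMIs were at least 2-fold higher, as were 11.8% of all genes, and 0 were lower. The median log2 ratio was 1.04, against 0.01 for all genes tested. Socs3, the inhibitor that binds gp130, went from 1 to 248 UMIs there, 107 CPM (94.5 to 122) after light damage, and Stat3 from 36.8 CPM (23.8 to 54.3) to 210 CPM (192 to 230), a log2 ratio of 2.51 (1.93 to 3.16). In Müller-like droplets Jak1, Stat3, Socs1 and Socs3 were higher of 6, beside 23.8% of all genes, 0 were lower, and the median stood at 2.19 against 0.04. Stat3 went from 92.0 CPM (42.1 to 175) to 400 CPM (330 to 480), a log2 ratio of 2.12 (1.15 to 3.29). Among rods of high unspliced share, 7 of 13 were higher, beside 8.40% of all genes, while Socs2 was lower, beside 6.00%, and the median stood at 2.58 against 0.01. Cish, a feedback inhibitor of STAT signalling, went from 10.1 CPM (5.66 to 16.7) to 87.0 CPM (81.5 to 92.9), a log2 ratio of 3.11 (2.38 to 3.95). Among rods of low unspliced share, 5 of 10 were higher, beside 4.66% of all genes, 0 were lower, and the median stood at 1.12 against 0.16. In cone-like droplets 2 of 7 were higher and 1 lower, where 22.2% of all genes were higher and 620 of 5148 lower, so the counts lie near those of all genes. In microglia-like droplets 3 of 5 were higher and 1 lower, beside 25.4% and 19.9% of all genes, with 6 control droplets behind them. Those higher, Jak1, Socs2 and Socs3, had 0 control UMIs, and their intervals span 0, as does that of Stat3, the lower 1. The 2 higher in cone-like droplets, Socs3 and Cish, also had 0 control UMIs, and the interval of Cish spans 0. The microglia-like calls and that of Cish in cone-like droplets thus give no direction. Downstream genes, too, passed the minimum of 20 UMIs more easily where they were high after light damage. Socs1 in Müller-like droplets, for example, had 0 UMIs in the control and 52 after light damage. The counts and medians of these 14 genes are thus a description.

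Of 12 genes listed as inducers of these ligands or as signs of the glial response, all 8 with enough UMIs in Müller-like droplets were at least 2-fold higher, beside 23.8% of all genes, with a median log2 ratio of 4.32 against 0.04. Fos and Jun, parts of AP-1, had 282 and 273 UMIs in light damage Müller-like droplets, 989 and 958 CPM, and Gfap, the filament gene of reactive glia, had 112 in 13 of 27 droplets. In RPE-like droplets all 6 measured were higher, beside 11.8% of all genes, among them Nfkbia, an inhibitor of NF-κB, from 10.3 to 174 CPM. Elsewhere, in rods of low unspliced share 6 of 8 were higher and Tnf lower, beside 4.66% and 2.88% of all genes. Tnf had 135 UMIs there in the control and 0 after light damage, and 0 in control rods of high share. How the 135 UMIs were spread over droplets is not described here, so no fall across these rods in general is read from them. In rods of high share 7 of 8 were higher, beside 8.40% of all genes. In cone-like droplets 4 of 7 were higher and Nfkb1 lower, where 22.2% of all genes were higher and 620 of 5148 lower. In microglia-like droplets 5 of 8 were higher, beside 25.4% of all genes. The cone-like and microglia-like counts rest on 6 control droplets each. As with the lists above, genes passed the minimum number of UMIs more easily where they were high after light damage. In Müller-like droplets Fos, Junb, Atf3 and Gfap had 0 UMIs in the control and 282, 159, 30 and 112 after light damage. The exact intervals of their log2 ratios began at 4.70, 3.87, 1.39 and 3.36. The counts and medians of these 12 genes, set beside those of all genes, are thus a description.

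The genes most like each member were the 5 of highest Pearson r of log2(CPM + 10) over 14 points, 7 classes in 2 libraries, among 11142 genes. For Lif they were Stc1 (0.997), Slc14a1 (0.994), Tnfaip6 (0.989), Gfap (0.976) and Cd24a (0.971), and for Osmr Chil1 (0.986), F3 (0.983), Tnfrsf10b (0.964), Tmem51 (0.962) and Palld (0.960). For Il6 the highest were Abracl (0.919) and Birc3 (0.910), for Cntf Ptpn13 (0.981), for Cntfr Ncald (0.939), for Lifr Tars2 (0.960) and for Il6st Ptdss1 (0.925). The points share libraries and differ in depth, and a high r means only that the same classes are high.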

How the data were processed

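Single-cell suspensions of retina gave 1 10x Genomics 3' library per condition. The deposited files hold whole-number UMI counts per barcode and gene, split by the authors with alevin-fry 0.8.1 and salmon 1.10.1 on mm10 into spliced, unspliced and ambiguous molecules, before any filter or normalization. Cell Ranger 7.0.1 is also named in the submitters' processing notes. The control and light damage tables hold 30605284 and 54413601 UMIs. Gene symbols came from a table that named 32158 of 32285 identifiers, and positions from GENCODE vM21.

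Droplets were kept at or above the inflection of the barcode rank curve (1464 and 1614 UMIs) with under 10% mitochondrial UMIs. The top 0.8% per 1000 droplets by Scrublet score (114 and 276) were left out, since its own threshold called 1 and 0. A non-rod class needed at least 3 markers and 10 marker UMIs and at least 0.5 times the marker UMIs of any other class, rods at least 5 of 10 markers, and 164 control and 96 light damage droplets with mixed markers were set apart. Free RNA is the profile of barcodes under 50 UMIs, and its share in a class was scaled on rod markers, or on RPE markers in rods and cones. CPM carry exact Poisson intervals, shares Clopper-Pearson intervals and log2 ratios exact conditional binomial intervals, all at 95%, for counting error only. A fold against 0 is taken against 3 UMIs over the class, and with no replicate library no p-value is given. Genes of a list with at least 10 UMIs in a class may be named, and the most similar genes need at least 100 UMIs. The members and lists were chosen with earlier results of these data known. The scripts were tested on simulated data. They ran under Python 3.11.15 with scipy 1.17.1 for the intervals, scanpy 1.11.5 and leidenalg 0.10.2 for the clusters and numpy 2.4.6, pandas 2.3.3 and matplotlib 3.10.9. Alternatives are given in the closing section.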

Additional observations from a re-analysis of the deposited data

Results flagged for a closer look

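Cntfr had a log2 ratio of light damage over control of 4.66 in RPE-like and of -1.91 in Müller-like droplets, opposite directions under the same contrast. The difference between the 2 classes was not tested, since each condition has 1 library.

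Droplets that fit no class or showed markers of several classes were outside the comparisons and held signal above the control. The 44 light damage droplets without a class held 35 Osmr UMIs, in 3 droplets with 22, 8 and 5, while the 10 such control droplets held 0. The 96 light damage droplets of mixed markers held 35 Lif UMIs, in 6 droplets with at most 16 each, and the 164 control ones held 0. The free RNA estimate for these light damage droplets is 19.0 Lif UMIs, but it is scaled on rod markers, which mixed droplets can hold themselves, so how much of the 35 is free RNA cannot be told apart. The light damage droplets without a class also held 5 Osm UMIs, all in 1 droplet, and the control ones 0.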

How the results depend on the processing

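The 21 log2 ratios of members with at least 20 UMIs in a class gave 252 values under the alternatives, of which 236 stayed within the interval of counting error and 251 kept the direction. The exception was Lifr in cone-like droplets, at 0.08 and, with unspliced UMIs added, -0.11. Of 192 alternative values for the 16 ratios of at least 1 either way, 189 stayed at least 1 in the same direction, the others being Lifr in rods with a high unspliced share (0.78 with unspliced UMIs added) and Il6ra in microglia-like droplets (-0.84 with a limit of 20 marker UMIs and -0.93 when centred). Leaving out, after the data had been seen, the droplet with the most UMIs of the gene moved Lif in light damage Müller-like droplets from 1105 to 905 CPM, Il6 in RPE-like droplets from 95.8 to 73.0 CPM and the Osmr log2 ratio from 2.34 to 3.63 in Müller-like droplets and from 2.003 to 3.60 in rods with a low unspliced share. With unspliced UMIs added to gene and total, Lif was 576 and Clcf1 144 CPM. With mixed droplets kept in their class, also chosen after seeing the data, Lif was 635 and Clcf1 143 CPM. Osmr in rods with a high unspliced share went from a log2 ratio of 1.68 to 4.17 with classes taken from clusters. The cause of these moves was not tested beyond what each alternative leaves out or adds.

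Of 308 alternative levels 278 and of 252 alternative shares 213 stayed within their intervals, and most shares that moved were those thinned to 1500 UMIs. Counts of genes past 2-fold moved by over 1.5 times with a minimum of 50 UMIs (641 higher and 286 lower in RPE-like, 408 and 190 in Müller-like droplets) and where the interval's end nearest 0 had to be past 2-fold (251 and 83 in RPE-like, 287 and 177 in Müller-like droplets, 146 and 140 in rods of low and 203 and 103 in rods of high unspliced share). Centring moved them to 1775 and 231 in cone-like and to 1940 and 267 in microglia-like droplets.

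Precision is set by the UMIs of a class: 3 UMIs are 30.7 CPM in control Müller-like, 67.5 in control cone-like and 298 CPM in control microglia-like droplets. No paired analysis was possible because each condition has 1 library. Leaving out a library would leave no comparison. Sex, depth and light differ together between the pools, and the part of each in these results was not tested.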

Other observations

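Il31ra, a receptor chain of this family for interleukin 31, was counted almost only as unspliced RNA. It had 4349 unspliced UMIs beside 4 others over all control barcodes and 7510 beside 1 over all light damage barcodes. Rods with a low unspliced share held 1415 and 1040 of these in kept control and light damage droplets, and RPE-like droplets 157 and 300.

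The light damage droplets without a class that held a family gene fell into recognisable sets by genes that were picked after their values were seen. The droplet with 5 Osm and 2 Il6 UMIs held 24 UMIs of Mcpt8 and 13 of Ms4a2, genes known from basophils. Il6ra was in 2 such droplets, 1 with 19 UMIs of the T cell receptor gene Trbc2 and 11 of Lef1, and 1 with 34 UMIs of S100a9 and 8 of S100a8, which are known from neutrophils. Of the 3 droplets with Osmr, 1 held 626 UMIs of the RPE marker Ttr, and another 66 of Enpp2 and 30 of Chil1. Each of these is a single droplet.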
